A study of Mus musculus with 8 samples.

Results

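The genes described here are the members of the AP-1 transcription factor family that are read beside BATF in T cells: *Batf*, *Batf3*, *Jun*, *Junb*, *Jund*, *Fos*, *Fosb*, *Fosl1*, *Fosl2* and *Atf3*. They were chosen by gene symbol, and a gene missing from a count table was given 0 reads there. Of the 10 named genes, 9 were among the 13704 genes with a read in either library, and *Jund* was in neither table. mRNA was sequenced from Th17 cells, the helper T cells that make IL-17, grown from wild-type (WT) mice and from mice whose T cells lack TRIM28, a co-repressor recruited to chromatin by zinc finger proteins. The KO group was labelled Trim28 fl/fl with CD4cre, where the Cd4 promoter drives Cre from the later thymic stages onward, so the gene is lost in CD8 T cells as well as in CD4 T cells. Both genotypes were on the C57BL/6 background, and naive CD4+ T cells (CD25-, CD62Lhi, CD44low) sorted from spleen and lymph nodes were cultured for 3 days on anti-CD3 and anti-CD28 in medium holding TGF-β (0.5 ng/ml) together with IL-6 (20 ng/ml). The cells were stimulated again with anti-CD3 before RNA was taken. The age of the mice, and whether several were pooled for a library, are not given in the sources used here. Each genotype had 1 RNA library, so no difference below has a replicate check, and each test compares 2 libraries and not 2 genotypes.

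The WT library held 6.65 M gene reads and the KO library 6.19 M. *Trim28* itself had 4485 reads in WT and 180 in KO, a log2 fold change of -4.53, in the direction the labels give. Markers of T cells were abundant in both libraries (10 of 13 listed, with a summed level of 6453 counts per 1000000 gene reads, CPM, in WT and 5649 in KO), although *Trac*, *Trbc1* and *Trbc2* were not listed. The Th17 marker list summed to 1833 CPM in WT and 565 in KO. Markers of other cells the sort could have let through had low sums over the genes that were listed. The B cell list (7 of 10 genes listed) summed to 17.0 and 13.1 CPM, and its 1 called gene, *Cd79b*, had 15 and 2 reads. The myeloid list (6 of 16 listed) summed to 5.41 and 3.07 CPM, and the CD8 list (2 of 4 listed) to 7.97 and 4.69 CPM. Unlisted markers are not read as absent. The NK and cytotoxic list summed to 24.1 CPM in WT and 43.3 in KO, with *Prf1*, which encodes perforin, at 22 and 48 reads and *Nkg7* at 0 and 42. *Gata3*, on that list but also the master factor of Th2 cells, gave 11.3 and 16.2 CPM of these sums. The dendritic cell list (10 of 15 genes listed) summed to 993 and 995 CPM, mostly from *Ccr7*, a homing receptor that T cells also carry. *Clec9a* and *Siglech* were among those not listed. The MHC class II gene *H2-Ab1* had 275 and 222 reads (41.4 and 35.9 CPM), and *H2-Aa*, *H2-Eb1* and *Cd74* also had enough reads to test. *Fscn1* of that list, 205 and 53 reads, was the 1 called. The part these other cells have in the results below was not tested.

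AP-1 is a dimer of basic leucine zipper proteins. JUN proteins pair with each other or with FOS proteins and bind the 7-base element TGACTCA, which lies in the enhancers of many genes that answer to T cell receptor signals. BATF and BATF3 have the zipper but no activation domain of their own: BATF takes a JUN partner, mainly JUNB or JUND, and together with IRF4 the trio binds composite AP-1 and IRF elements, where it opens chromatin early in Th17 differentiation. BATF, JUNB and IRF4 are each needed for normal IL-17 production in mice, while FOSL2 is known as a brake on parts of the Th17 programme. FOS, FOSB and ATF3 are immediate-early products, made within minutes of a stimulus and lost soon after, and FOSL1 follows more slowly.

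The DNA just upstream of the start sites is shown for 4 members that hold a CRE-like match in this stretch: *Batf* and *Jun*, the abundant members whose counting intervals stayed above 0 in KO over WT before and after the correction for transcript length described below, and *Fos* and *Junb*, classical inducible members. The sequences are RefSeq's, on GRCm38.p6 (mm10), the 120 bases before each start read 5′ to 3′ on the gene's strand, with capitals marking TGACG, the core of the cyclic AMP response element, or in *Jun* the 8-base variant TGACATCA.
*Batf*, chr12:85686600-85686719, plus strand: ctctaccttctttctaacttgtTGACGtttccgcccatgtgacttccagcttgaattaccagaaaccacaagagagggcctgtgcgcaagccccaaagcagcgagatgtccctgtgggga
*Jun*, chr4:95052223-95052342, minus strand: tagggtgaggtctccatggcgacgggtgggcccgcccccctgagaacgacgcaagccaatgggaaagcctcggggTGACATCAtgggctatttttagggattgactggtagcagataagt
*Junb*, chr8:84978749-84978868, minus strand: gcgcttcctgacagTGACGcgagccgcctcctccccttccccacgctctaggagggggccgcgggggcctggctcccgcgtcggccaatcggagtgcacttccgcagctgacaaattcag
*Fos*, chr12:85473770-85473889, plus strand: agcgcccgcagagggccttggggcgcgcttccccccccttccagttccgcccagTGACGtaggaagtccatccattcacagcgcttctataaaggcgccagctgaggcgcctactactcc

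Motifs were searched in the 250 bases before the start of the 9 members that the promoter table holds (*Fosl1* is not among them) and of all 32851 promoters in it. The AP-1 element TGACTCA was in none of the 9 and in 4.46% of all promoters, and the full response element TGACGTCA was in none and in 1.55%. The STAT-type letters TTCCNGGAA, searched because IL-6 signals through STAT3, were in none of the members and in 0.913% of promoters, and the CArG box, to which serum response factor binds, was in none and in 1.47%. The core TGACG was searched on both strands after the sequences had been seen, and it lay in 5 members against 17.8% of all promoters: at -98 to -94 from the start of *Batf*, -106 to -102 in *Junb*, -129 to -125 and again -66 to -62 in *Fos*, -60 to -56 in *Fosb* and -7 to -3 in *Atf3*. The variant TGACATCA was in *Jun* alone, at -45 to -38, and in 2.93% of all promoters. The start of *Fosb* in the promoter table, base 19310045, lies 73 bases inside the gene's annotated span given below, so its match falls within that span. These are matches of letters, and binding at them was not measured. The member promoters had a median GC content of 64.4% and 19 CpG dinucleotides, compared with 52.4% and 6 over the table. The *Batf* promoter stood at the low end with 46.4% GC and 7 CpG, next to *Jund* with 47.6% and 3.

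**Figure D1:**
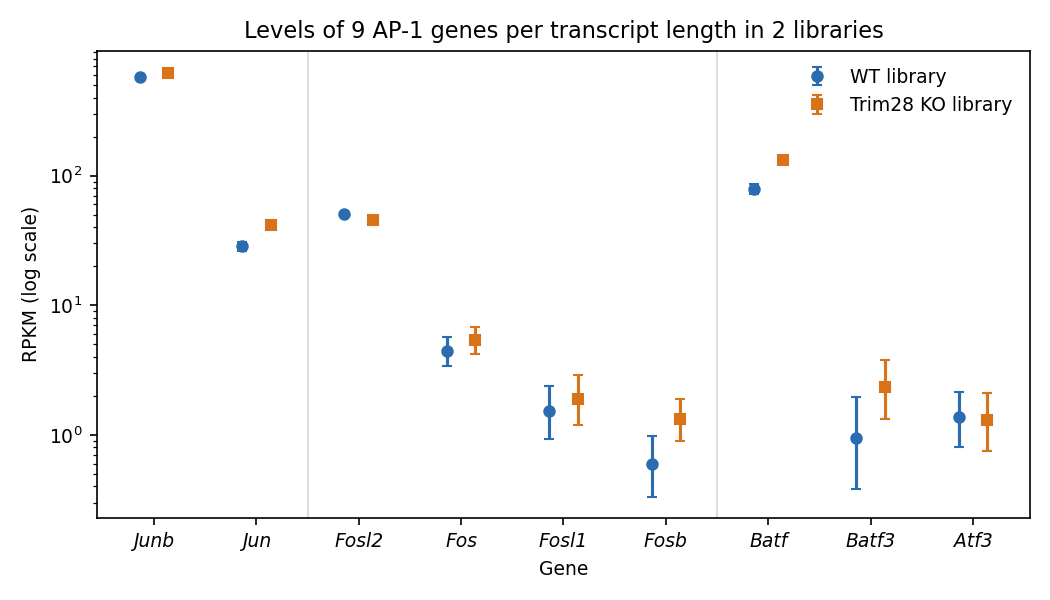
Level of each AP-1 family gene in the WT and the KO library in RPKM (CPM per kilobase of the longest transcript) on a log axis, with exact 95% Poisson intervals that cover counting error only. *Junb* stood highest in both libraries (575 and 617 RPKM), *Batf* was the member whose intervals lay furthest apart among the abundant genes (78.6 and 133 RPKM), and *Jund* was listed in neither table.

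Among the members that were listed, *Junb* was the most abundant by far. Levels between genes are compared as RPKM, the CPM divided by the length in kilobases of a gene's longest annotated transcript. The order in WT was *Junb*, *Batf*, *Fosl2*, *Jun*, *Fos*, *Fosl1*, *Atf3*, *Batf3* and *Fosb*, and the first 5 places were the same in KO. *Junb* stood at 575 RPKM in WT and 617 in KO, while *Batf* held the next place with 78.6 and 133. *Fosl2* and *Jun* were well apart in WT, at 50.7 and 28.7 RPKM, but their 95% counting intervals overlapped in KO (43.6 to 47.8 for *Fosl2* and 38.7 to 44.4 for *Jun*). The 4 least abundant members, *Fosl1*, *Atf3*, *Batf3* and *Fosb*, lay between 0.596 and 1.53 RPKM in WT and between 1.30 and 2.33 in KO, on 7 to 31 reads each. Their order differed between the libraries, and neighbours in it had overlapping counting intervals.

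*Batf* had the lowest p of the family when only counting error was allowed for. It lies on chromosome 12 (mm10, 85686720 to 85709087, plus strand, 3 exons) and was counted 499 times in WT and 784 times in KO, or 75.0 and 127 CPM. The KO library was thus 1.69-fold higher, a log2 fold change of 0.76 with a 95% counting interval of 0.59 to 0.92 (exact binomial test on the reads, Benjamini-Hochberg adjusted p = 3.6e-19 over 10881 genes). The difference was beyond counting error but below the 2-fold line set for a call. With an assumed variation between cultures (edgeR's exact test at coefficients of variation of 0.1, 0.2 and 0.4), the adjusted p was 0.0099, 0.636 and 1.0, so it no longer passed from 0.2 on. In the WT library *Batf* was at the percentile 94.0 of all listed genes by RPKM, and in KO at 96.2. Because these are bulk libraries, more cells that express the gene and more RNA per cell cannot be told apart, here and for every gene below.

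Part of this value moved with transcript length. Over all tested genes, longer transcripts had lower KO over WT ratios (Spearman's rho -0.37 across genes, which are not independent replicates), and *Batf*, with a longest transcript of 955 bases, is short. After subtracting a smooth length trend fitted to all genes, the log2 fold change of *Batf* was 0.47 with an interval of 0.31 to 0.64, still above 0. Subtracting a trend on GC content in its place left 0.68. Whether the length trend came from the RNA, the library or the cells was not tested.

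*Batf3*, a close relative that can stand in for BATF and is best known from dendritic cells, was near the floor. It is on chromosome 1 (191098414 to 191108943, plus strand) and had 7 reads in WT and 16 in KO, 1.05 and 2.59 CPM. Its log2 fold change of 1.24 had an interval from -0.06 to 2.82 (exact binomial test, adjusted p = 0.115), so a difference was not detectable at this depth. *Atf3*, a stress-induced repressor whose gene lies 61353 bases from *Batf3* (191170296 to 191183333, minus strand), was counted 18 and 16 times, and its log2 fold change was -0.06 (interval -1.13 to 0.99).

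Among the JUN genes, *Jun* had the larger difference. c-Jun is the strongest activator of the family and JUNB the weaker one, which is also BATF's usual partner in Th17 cells. *Jun*, a gene of 1 exon on chromosome 4 (95049036 to 95052222, minus strand), had 608 reads in WT and 818 in KO (91.4 and 132 CPM). It was 1.45-fold higher in KO, at a log2 fold change of 0.53 (0.38 to 0.69; exact binomial test, adjusted p = 4.2e-11). With a longest transcript of 3189 bases it sat where the length trend crosses 0, and the corrected value was also 0.53. At the assumed variations of 0.1, 0.2 and 0.4 its adjusted p by edgeR's exact test was 0.0951, 0.868 and 1.0, so the difference passed on counting error only.

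*Junb*, on chromosome 8 (84976909 to 84978748, minus strand, 1 exon), had nearly the same number of reads in both libraries, 6920 and 6907. Its read count is large enough that the small difference in CPM (1041 and 1117, log2 fold change 0.10, interval 0.05 to 0.15) passed the exact binomial test at an adjusted p of 0.00015. That sign did not survive the corrections: the length-corrected log2 fold change was -0.08 (interval -0.13 to -0.03) and the GC-corrected one -0.01. *Junb* was above 99.3% of all listed genes by RPKM in either library.

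*Jund* (chromosome 8, 70697739 to 70700616, plus strand, 1 exon) was listed in neither table. For a counted gene, 0 reads would allow a level of up to 0.451 CPM in WT and 0.485 in KO. *Jund* has 2 curated RefSeq transcripts. Among the family and the hand-chosen gene lists used below, 3 of 93 genes with 1 such transcript were unlisted, compared with 15 of 86 genes with more, *Myc*, *Runx1*, *Nfatc1* and *Atf2* among them. Over all annotated protein-coding genes the listed share went the other way, 54.5% of genes with 1 transcript and 71.5% of those with more, while the listed genes had a median of 340 and 100 reads. The neighbours of *Jund* within 100 kb were counted, 9 of them with enough reads to test, among them *Lsm4* (946 reads in WT and 1330 in KO). The 0 for *Jund* is given as listed and is not read as absence of its RNA, and the part of the transcript number in it was not tested.

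The only member called between the libraries was *Fosb*. A gene was called when its adjusted p was below 0.05 and its difference at least 2-fold, and 8.11% of all tested genes met this (2.57% higher and 5.53% lower in KO), so 1 call among 9 tested members is close to the background. At 2-fold alone, *Batf3* and *Fosb* were higher and no member lower, where 3.75% and 7.94% of tested genes were. *Fosb* was also the 1 member called after the length correction, when 6.77% of all genes were. *Fosb*, on chromosome 7 (19302696 to 19310118, minus strand, 5 exons), had 15 reads in WT and 31 in KO, 2.26 and 5.01 CPM. The log2 fold change was 1.13 (interval 0.22 to 2.15; exact binomial test, adjusted p = 0.0285), and 1.19 after the length correction. FOSB is an immediate-early partner of the JUN proteins, and like *Jund* it has more than 1 curated transcript. The call rests on these few reads and was lost with a larger pseudocount, when the difference was 0.95, and in each model that allowed for variation between cultures.

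*Fosl2* was the one abundant FOS gene. It encodes FRA-2, has the longest transcript of the family (6537 bases) and lies on chromosome 5 (32136472 to 32157840, plus strand). Its reads numbered 2206 in WT and 1848 in KO, and its CPM 332 and 299. The uncorrected log2 fold change was -0.15 (interval -0.24 to -0.06; exact binomial test, adjusted p = 0.0030) and the length-corrected one 0.19 (0.10 to 0.28). The direction of *Fosl2* between these libraries therefore depends on whether the length trend is taken out, and the GC correction left it at -0.18.

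*Fos* and *Fosl1* did not differ beyond counting error. *Fos*, on chromosome 12 (85473890 to 85477274, plus strand), had 62 and 70 reads (log2 fold change 0.28, interval -0.23 to 0.80; adjusted p = 0.425 by the exact binomial test). Only 209446 bases separate it from *Batf*, with *Jdp2*, a repressor of AP-1, between them at 6 and 3 reads. *Fosl1*, on chromosome 19 (5447698 to 5455938, plus strand), was counted 19 and 22 times, at 0.31 on the same scale (interval -0.64 to 1.28). *Fosl1* overlaps *Ccdc85b* on the other strand (46 and 44 reads), and since the strand used in counting is not given in the sources used here, reads of the pair may not be separable.

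**Figure D2:**
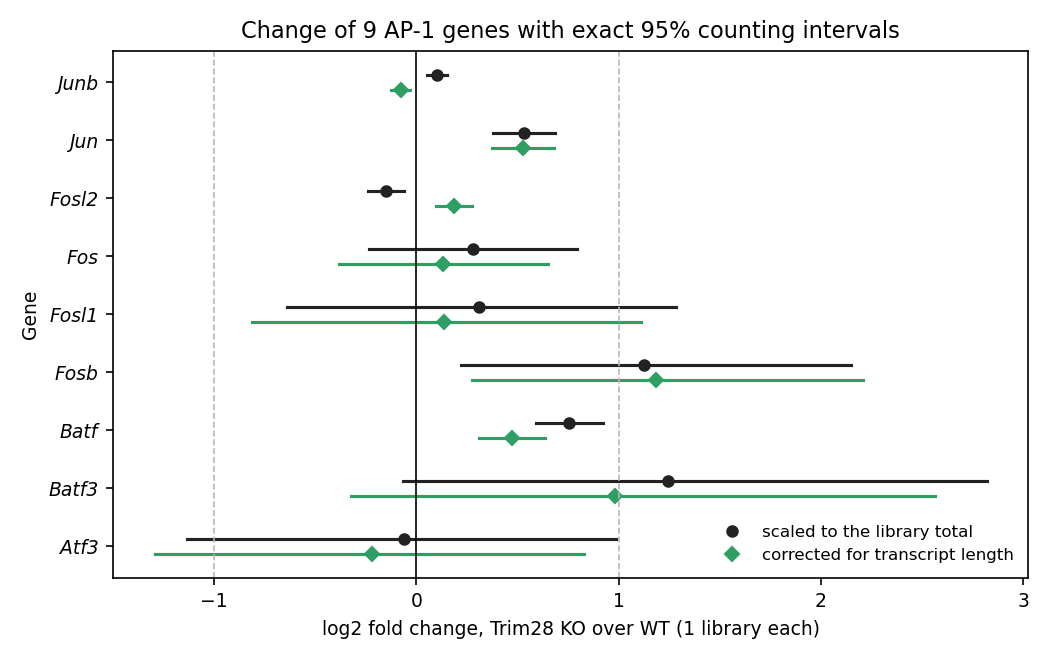
Log2 fold change, KO over WT, of the 9 listed members with 95% counting intervals, uncorrected and after subtracting the length trend of all tested genes. *Batf*, *Jun* and *Fosb* lay above 0 both ways, *Junb* and *Fosl2* changed sign between the ways, and the intervals of *Batf3*, *Fos*, *Fosl1* and *Atf3* crossed 0.

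By their number the members leaned higher in KO. Of the 9 tested, 7 had a log2 fold change above 0, against 48.6% of all tested genes, and their median was 0.31, against -0.02. The length correction lowered the median to 0.19 (0.00 over all genes) and left 7 above 0, against 50.3%. At an adjusted p below 0.05 with no limit on size, 4 members were higher (*Batf*, *Jun*, *Junb*, *Fosb*) and 1 lower (*Fosl2*), where 21.4% and 22.4% of all genes were. Of these 5, *Batf* alone still passed at an assumed variation of 0.1, and none at 0.2. After the length correction the counts were again 4 and 1 (20.8% and 17.5% of all genes), but *Junb* was then the lower one and *Fosl2* among the higher. The members are short and GC-rich, with a median longest transcript of 1984 bases and 56.0% GC compared with 3317 bases and 49.8% over the tested genes.

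**Figure D3:**
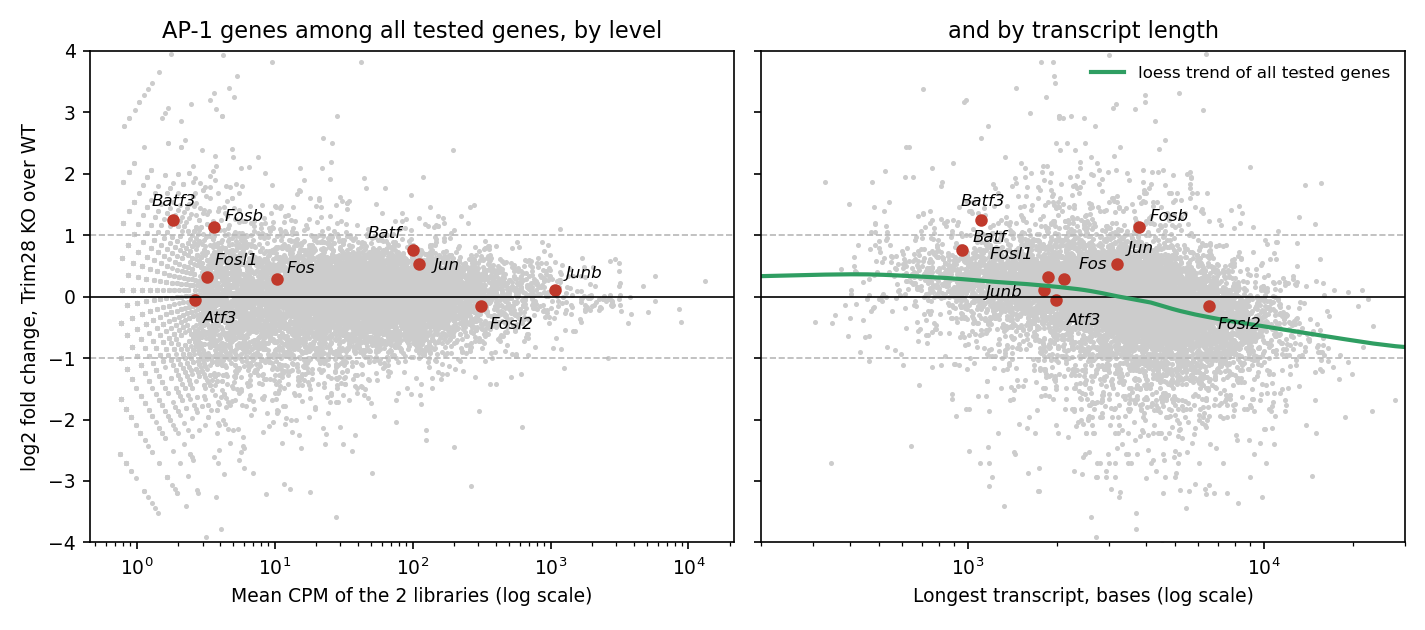
Log2 fold change, KO over WT, of all tested genes (grey) and the AP-1 members (red) against mean CPM and against the length of the longest transcript, both on log axes. The dashed lines mark 2-fold, and the green line is the loess trend, which falls with length (rho -0.37). *Batf* and *Jun* lie above the trend and below the 2-fold line, and *Fosl2*, the longest member, lies below 0 but above the trend.

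The make-up of the AP-1 message pool was compared within each library. The JUN genes made up 81.4% of the family's summed RPKM in WT and 77.6% in KO, the FOS genes 7.72% and 6.39%, and the BATF and ATF3 genes 10.9% and 16.1%. *Batf* alone went from 10.6% to 15.6% of the sum and *Junb* from 77.5% to 72.7%. Within the FOS group, *Fosl2* held 88.6% and 84.2%, *Fos* 7.72% and 9.89%, *Fosl1* 2.68% and 3.51%, and *Fosb* 1.04% and 2.44%. All members together had 1557 CPM in WT and 1700 in KO, a log2 fold change of 0.13 with a counting interval of 0.09 to 0.17. These shares leave out *Jund* and describe RNA, not protein. Neither the shares nor the sum were corrected for the length trend. *Fosl2*, which makes up most of the FOS group, and *Junb* changed sign with that correction. No direction is therefore given for the share of the FOS genes or for that of *Fosl2* among them.

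Ratios between partner messages within a library do not depend on the scaling of the libraries. They were added after the values had been seen. The ratio of *Batf* to *Junb* in RPKM was 0.137 in WT and 0.215 in KO, 1.57-fold higher (counting interval 1.40 to 1.77) and 1.46-fold after the length correction. *Jun* to *Junb* was 0.0498 and 0.0672, 1.35-fold higher (1.21 to 1.51; 1.52-fold corrected). *Irf4*, which encodes the IRF partner of BATF, had 10145 reads in WT and 5222 in KO (log2 fold change -0.85), so that *Batf* to *Irf4* went from 0.245 to 0.749, a ratio 3.05-fold higher in KO (2.71 to 3.44; 2.21-fold corrected). *Fos* to *Fosl2* was 0.0872 and 0.117, 1.35-fold with an interval of 0.938 to 1.94 that includes no difference. *Fosl2* to *Junb* was 0.839-fold without the correction and 1.20-fold with it, so no direction is given for that ratio.

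Of 29 other basic leucine zipper genes, 23 were tested, none was called higher and 3 were called lower (2.57% and 5.53% of all tested genes were), with a median log2 fold change of -0.16 (-0.13 corrected for length). *Maf*, which drives *Il10* and *Il21* in Th17 cells, fell from 6699 to 1431 reads (log2 fold change -2.12, -1.80 corrected). *Atf7* fell from 113 to 48 reads (-1.12) and *Nfe2l1* from 32 to 12 (-1.27), and neither was called after the length correction. The 3 nearest to *Batf* in log2 fold change were *Crem* (28 and 49 reads, 0.90), *Cebpb* (147 and 259 reads, 0.92) and *Cebpd* (25 and 46 reads, 0.97). CREM answers to cyclic AMP and the C/EBP proteins to inflammatory signals, and none of the 3 passed the 2-fold line, although *Cebpd* did after the length correction (1.03). The ratio of *Batf* to *Maf*, also added after the values had been seen, was 0.496 in WT and 3.65 in KO. It was 7.35-fold higher (6.47 to 8.36), and 4.82-fold after the length correction. On the log2 scale this ratio rose by 2.88, with *Maf* at -2.12 and *Batf* at 0.76, so more of it came from *Maf*.

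The signalling genes that lie above AP-1, the T cell receptor adaptors, MAP kinases, and MEF2 and ternary complex factors, held no call in the higher direction. Over all tested genes, 2.57% were called higher and 5.53% lower. Of 32, 29 were tested and 4 were called lower: *Malt1*, the paracaspase that links the receptor to NF-κB and JNK, went from 4871 to 1830 reads (log2 fold change -1.31), *Mef2d* from 1204 to 508 (-1.14), *Mef2a* from 250 to 109 (-1.09) and *Elk4*, a ternary complex factor, from 375 to 144 (-1.27). Only *Elk4* was still called after the length correction (-1.14), which also moved the list's median from -0.17 to 0.03. Among 19 genes for the turnover of JUN and FOS proteins and their co-factors, 16 were tested with a median of -0.12. *Nedd4*, a ubiquitin ligase, was the 1 called, from 1309 to 486 reads (-1.32, -1.06 corrected), where 8.11% of all tested genes were called. The most abundant of them, *Ddb1* and *Ndfip1*, had log2 fold changes of -0.12 and 0.12.

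The other immediate-early genes did not move in one direction. Of 29 tested, *Gadd45b* was called higher (62 and 119 reads, log2 fold change 1.04) and *Egr3*, *Dusp6* and *Rel* lower. Over all tested genes, 2.57% were called higher and 5.53% lower. *Egr3*, an early transcription factor that tempers T cell activation, went from 350 to 156 reads (-1.06), and *Dusp6*, which dephosphorylates ERK, from 578 to 245 (-1.13). The NF-κB subunit gene *Rel* went from 193 to 85 reads (-1.07). After the length correction *Dusp6*, *Dusp4* (1063 and 514 reads, -1.01) and *Ier3* (154 and 80 reads, -1.09) were called lower and none higher. The list's median was -0.10. *Fos* and *Fosb* belong to the same class by their kinetics, and the time between the second anti-CD3 stimulus and lysis is not given in the sources used here.

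Genes that act with BATF and genes listed as its targets held calls in the lower direction alone, although most of their members were not called. Of 13 tested partners, 3 were called lower and none higher, where 5.53% of all tested genes were called lower, with a median of -0.63 (-0.39 corrected): *Rora*, a nuclear receptor of the Th17 programme (258 and 45 reads, -2.40), *Ahr*, the aryl hydrocarbon receptor (816 and 185, -2.03), and *Nfatc2* (88 and 32, -1.34), which was not called after the length correction (-0.99). Of 23 tested genes listed as BATF targets, 8 were called lower, none higher and 15 not at all, and the same 8 were called after the length correction. *Il17a* fell from 2226 to 381 reads (log2 fold change -2.44), *Il17f* from 3143 to 345 (-3.08) and *Il21* from 3537 to 1233 (-1.42). *Il10* went from 26 reads to 0 and *Ccl20* from 12 to 0, which at a floor of 3 reads in the KO library are log2 fold changes of -3.01 or lower and -1.90 or lower. *Rora*, *Ahr* and *Maf* are also on this list and complete the 8. These 8 were singled out because they were lower, so their direction beside that of *Batf* is no test of a link. The median of the 23 was -0.65 (-0.39 corrected). Genes that were not called lay on both sides of 0, among them *Areg* at 1.17 and *Il23r* at -0.76. Over both libraries *Areg* had only 16 reads and *Il23r* 302. The relation of *Batf* to its listed targets was not tested.

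General AP-1 targets of T cells were counted in the same way. Of 17 tested, 2 were called higher and none lower, where 2.57% and 5.53% of all tested genes were. The list's median was 0.04, and -0.04 after the length correction. The 2 called were the chemokine genes *Xcl1* (9 and 36 reads, log2 fold change 2.05) and *Ccl3* (57 and 115 reads, 1.11). Cytotoxic cells also make these chemokines. The NK and cytotoxic marker list was higher in the KO library and the CD8 list lower, and which cells the reads came from was not tested. *Il2ra*, which encodes the IL-2 receptor α chain, was the most abundant of the list with 12320 and 8925 reads (-0.36). Any difference from the BATF list was not tested. With the length correction *Xcl1* was called higher (1.69) and *Timp1*, at 14 and 4 reads, lower (-1.88).

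**Figure D4:**
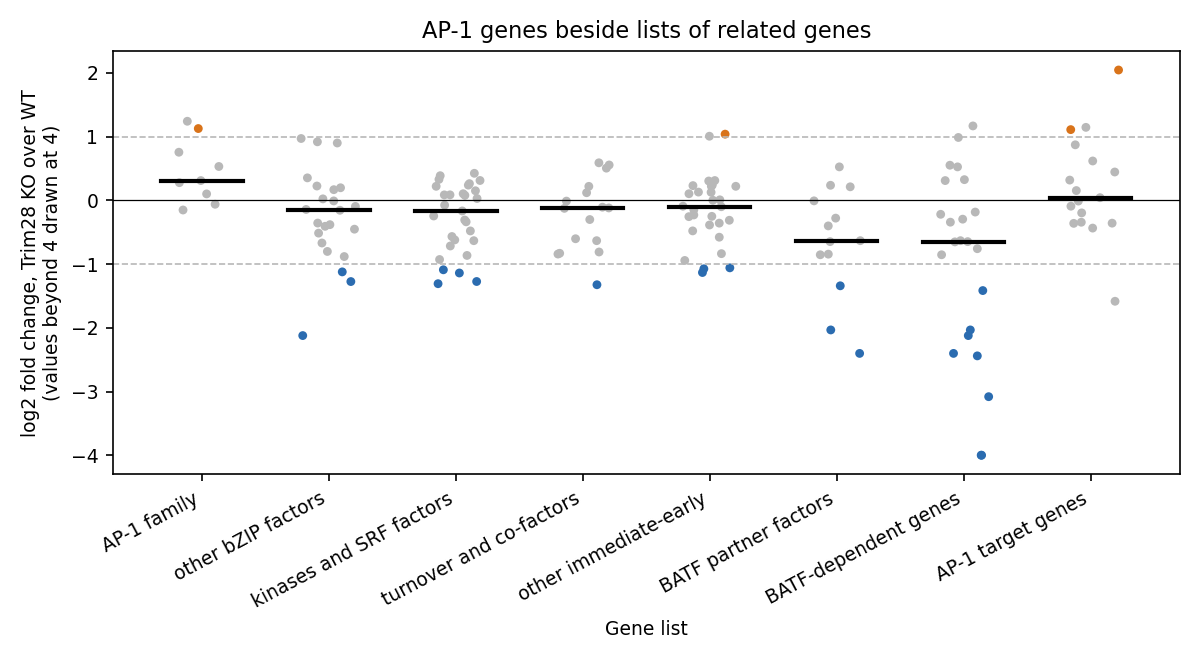
Log2 fold change, KO over WT, of the tested genes of each list (points), with the list's median as a bar and the AP-1 members at the left. Orange and blue mark genes called higher and lower, dashed lines 2-fold, and *Il10* and *Ccl20*, with 0 reads in KO, are drawn at -4. The BATF targets and partners have the lowest medians (-0.65 and -0.63), and the AP-1 members the highest (0.31).

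The genes next to the family members were read to see whether the differences extend along the chromosome. Within 100 kb of the 10 genes, 53 annotated genes were tested, with *Batf3* and *Atf3* among them as neighbours of each other. Of the 53, 2 were called higher and none lower, where 2.57% and 5.53% of all tested genes were. Their median was 0.20, against -0.02 over all tested genes. *Mast1*, 30732 bases downstream of *Junb*, went from 17 to 52 reads (log2 fold change 1.69), and *2010320M18Rik*, 76246 bases downstream of *Jund*, from 14 to 35 (1.40). Near *Batf* the nearest tested gene was *Flvcr2*, a transporter gene 37452 bases downstream, at 6 and 8 reads. The nearest tested neighbour of *Jun*, *Mysm1*, lay 69881 bases downstream and had 508 and 285 reads (-0.73), opposite in sign to *Jun*. *Prdx2*, 2098 bases downstream of *Junb*, had 1723 and 1736 reads (0.12). For *Fosb*, *Ercc1* on the upstream side had 58 and 67 reads (0.31) and *Vasp* on the downstream side 9 and 12. The nearest tested genes of the other members were close to 0 as well or had few reads: *Nsl1* upstream of *Batf3* (343 and 381 reads, 0.26), *Hook2* upstream of *Junb* (14 and 13, 0.00), *Tmed10* upstream of *Fos* (1411 and 1417, 0.11), *AI837181* and *Fibp* on the sides of *Fosl1* (0.27 and 0.31) and *Babam2* upstream of *Fosl2* (14 and 12, -0.11). Of the *Jund* neighbours, *Lsm4* was at 0.60 and *Pde4c* at -0.30. No neighbour of *Batf*, *Jun* or *Fosb* within that distance was called, but only 1, 1 and 7 of them were tested. With 8.11% of all tested genes called, these are too few to show whether a difference extends along the chromosome.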

How the data were processed

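mRNA libraries of WT and KO Th17 cells were analysed, 1 each. The authors aligned reads to mm10 (SOAP2 in the methods; Bowtie and HTSeq in the submitters' processing notes) and deposited counts of uniquely mapped reads per gene; annotation and strand setting are not given in the sources used here. Samples of other assays were not analysed here. Groups came from the sample titles. From the deposited counts, CPM used the sum of gene reads, and RPKM the longest GENCODE M21 transcript (12833 names matched by symbol, 795 by an older symbol, 76 not). Log2 fold changes used a pseudocount of 0.5 reads. Genes with at least 10 reads in all (10881) entered an exact binomial test, two-sided, of the KO share of reads (SciPy 1.17.1), with Benjamini-Hochberg adjustment. The quasi-likelihood test needs replicates and was not run. Intervals are exact at 95% and cover counting error only, since reads carry no molecular identifiers. A loess fit (statsmodels 0.14.6) gave the length and GC trends, with lengths for 99.1% of tested genes. edgeR 4.0.16 with assumed coefficients of variation, TMM, DESeq2 1.42.0 size factors, upper-quartile scaling, other filters, pseudocounts and fold limits were alternatives. The scripts were tested on simulated data. Members and gene lists were chosen with earlier results of these data known. Named were all members, every called gene of a list (with the most-read genes where fewer than 3 were called), called and nearest tested neighbours, and the 3 leucine zipper genes nearest to *Batf* in value. *Timp1*, *Dusp4*, *Ier3*, *Jdp2*, *Areg* and *Il23r* were named after their values were seen. A count of 0 allows up to 3 reads, 0.451 CPM in WT and 0.485 in KO.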

Additional observations from a re-analysis of the deposited data

How the results depend on the processing

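With 1 library per genotype, no alternative tests variation between cultures, and counting error limits every member except *Junb*, *Fosl2*, *Jun* and *Batf*. The count of members called higher was 1 (*Fosb*). It was 0 with a pseudocount of 5 reads and 0 with edgeR's exact test at assumed coefficients of variation of 0.1, 0.2 and 0.4 (adjusted p of *Fosb* 0.120, 0.611 and 1.0), and 2 at a 1.5-fold limit, which added *Batf*. At no fold limit, a coefficient of 0.1 left *Batf* alone below 0.05 (0.0099; *Jun* 0.0951, *Fosl2* 0.730, *Junb* 0.835), and 0.2 none. Members called lower numbered 0 under all. Length correction reversed *Junb* to -0.077 and *Fosl2* to 0.19, GC correction reversed *Junb* to -0.0086, and length correction reversed the medians of the upstream list to 0.027 and of the AP-1 target list to -0.043. The median of the BATF target list moved to -0.39. Over union exons *Fosl2* was at 56.6 and 51.0 RPKM. Of 107 member values under alternatives, 99 kept direction and side of the threshold. Read filters, the fold limit and edgeR's test left the log2 fold change itself as it was. Of the 9 tested members, 8 were not called to begin with, so a stricter test could not move them. Many of the 99 were thus fixed in advance, and the count is no measure of stability. Over all genes, 280 were called higher and 602 lower, and counts past 1.5 times from these were 184 and 389 with at least 10 reads in each library, 65 and 131 at a coefficient of 0.2, 7 and 9 at 0.4, and 764 and 1248 at 1.5-fold. TMM, DESeq2 and upper-quartile scaling moved the median of all genes by 0.025, 0.011 and -0.008. The cause of each change was not tested beyond the setting itself. No paired analysis was possible because each genotype has 1 library and the labels give no replicate numbers.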
